A study of Mus musculus with 15 samples.

Results

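The last interval of a tissue dissociation time course of mouse skeletal muscle stem cells was examined, the step from the time point T90 to T120. All 4 bulk RNA-seq libraries of T120 (120A to 120D) were set against all 3 of T90 (90A to 90C), 7 of the 22 bulk libraries, over all 8059 genes in the count table. T120 and T90 are both labelled as dissociated and fixed bulk samples. The sources used here give no strain, age or genotype for these samples and no unit for the time numbers, which were taken as minutes. Both were fixed with PFA, and dissociation was with collagenase and dispase, enzymes that digest the matrix around the cells. Nothing in the labels says that libraries came from separate animals, so p-values measure the spread between libraries, which may be technical. In the main fit that spread was estimated from all 22 bulk libraries and not from the 7 of T120 and T90 alone.

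Muscle stem cells, also called satellite cells, lie against the muscle fibre in a resting state, quiescence, and carry the transcription factor Pax7. When muscle is damaged they activate: immediate early genes such as Fos and Egr1 are transcribed without new protein synthesis, the myogenic determination factor Myod1 appears, and the cells enlarge their ribosome supply before they divide. Notch signalling is known to hold the cells in quiescence.

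Totals over the listed genes were 8647622 to 20529272 counts at T120 and 14043660 to 27826437 at T90. The 10 satellite cell markers were all listed, and their summed level was 6520 to 7990 CPM (counts scaled to library size, with TMM factors) at T120 and 7210 to 7670 at T90. Of 9 immune markers 1 was listed, Cd68, and of 4 tenocyte and 5 erythroid markers 0. Library 90A lay apart from the other T90 libraries and nearer to T120, at -0.22 on the first principal component of the 7 libraries, where T120 had -22.8 to -5.31 and 90B and 90C had 31.0 and 33.1. Library 120B had higher levels on 3 long genes of low expression, Muc16, Mroh2a and Pclo, than the others, 1.41 CPM per kb of exon against 0.0407 to 0.257 in the other 6 libraries.

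Between T90 and T120, 29 of 49 genes of ribosome assembly rose and 0 fell. Of 45 quiescence genes 16 fell and 2 rose, and of 33 immediate early genes 12 fell and 1 rose. Of the 10 satellite cell markers 4 fell, Pax7 among them, 1 rose, Myod1, and 5 were not called. By the edgeR quasi-likelihood test without a replicate block, 734 genes rose and 1117 fell at an adjusted p under 0.05. These were 9.11% and 13.9% of the listed genes, 23.0% together. Of these, 65 rose and 90 fell at least 2-fold, and the median log2 fold change of all genes was -0.04. In 961 genes (11.9%) every T120 library lay above every T90 library, and in 1197 (14.9%) below. The calls were sensitive to single libraries: 254 of the rises and 409 of the falls were kept in all 7 fits that left out 1 library in turn. Without 90B there were 343 rises and 564 falls, without 90C 463 and 634, and without 120D 489 and 573. A fit on the 7 libraries alone called 409 up and 384 down, and with the library letter as a replicate block 204 and 171. Without 90A and 120B together the counts were 829 and 1086.

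**Figure D1:**
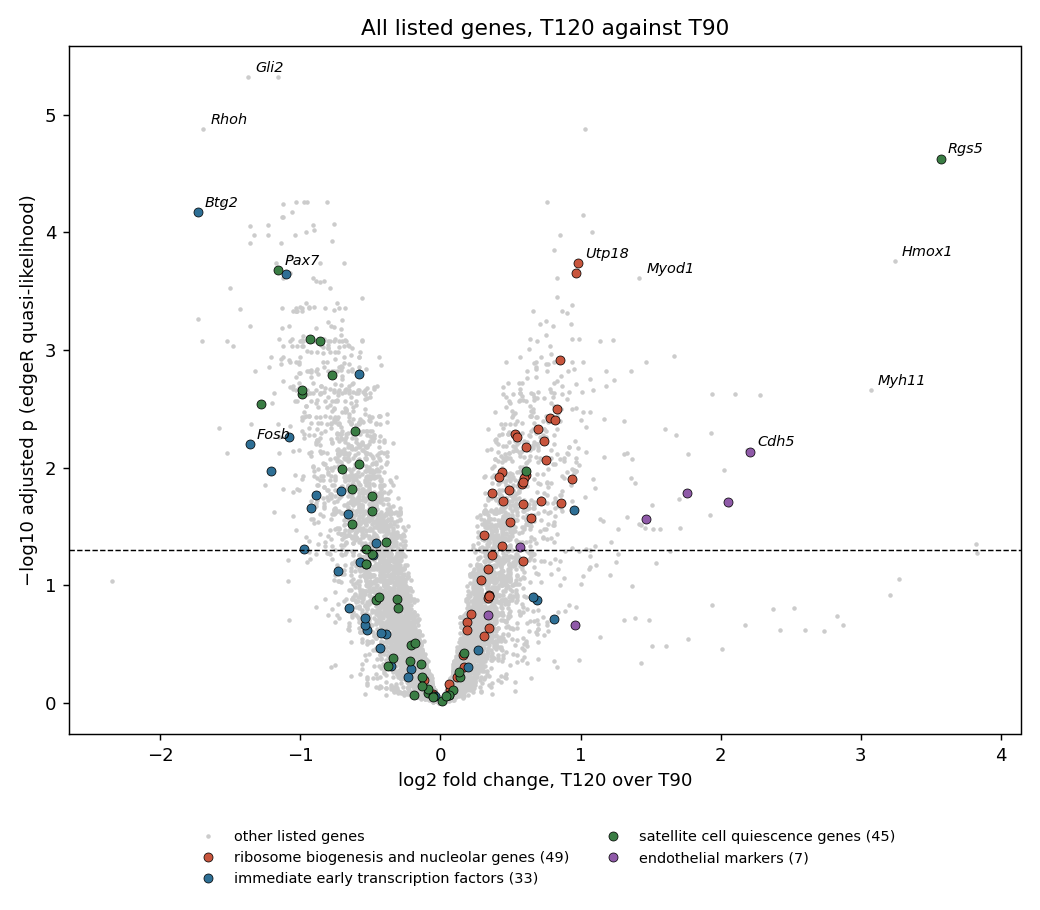
Each point is 1 of the 8059 listed genes, with the log2 fold change of T120 over T90 on the horizontal axis and -log10 of the edgeR adjusted p on the vertical axis, and the dashed line is at an adjusted p of 0.05. Ribosome biogenesis genes lie to the right, most immediate early and quiescence genes to the left, and 5 of 7 endothelial markers lie at the upper right above the line.

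Among the myogenic factors, Myod1 rose and Pax7 fell. Myod1 (chromosome 7, 46376474 to 46379099, + strand, mm10) had 1070, 876, 875 and 919 CPM in 120A to 120D, against 500, 267 and 284 CPM in 90A to 90C. The groups did not overlap, and 90A was the highest of the T90 libraries. The log2 fold change was 1.42 ± 0.21 (SE; adjusted p = 0.000245, edgeR), after a step of 1.86 ± 0.21 between T60 and T90. Pax7 (chromosome 4, 139737062 to 139833528, - strand) had 478, 313, 408 and 311 CPM at T120 and 732, 1010 and 790 CPM at T90. All T120 libraries were below all T90 libraries, with a log2 fold change of -1.16 ± 0.17 (adjusted p = 0.000211, edgeR). In mean levels Myod1 was 2.48 times Pax7 at T120 and 0.415 times at T90, on a scale not divided by gene length.

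Of 18 measured myogenic factors and commitment genes 2 rose and 5 fell, with a median of -0.24 against -0.04 over all genes. These were 11.1% and 27.8%, against 9.11% and 13.9% of all genes. The second riser was Msc (0.61 ± 0.19), a basic helix-loop-helix repressor. Cdh15, the adhesion protein M-cadherin of satellite cells, had 123, 130, 148 and 129 CPM at T120 and 179, 328 and 248 CPM at T90 (-0.93 ± 0.16; adjusted p = 0.000812, edgeR). Id3, an inhibitor of basic helix-loop-helix factors, fell by 0.77 (SE 0.16), and Pax3, a developmental factor of the lineage, fell by 0.53. Msc and Pax3 were named after their values were seen, and their calls were lost without 90B and, for Msc, also without 90C or 120D (highest edgeR adjusted p of 0.122 and 0.0647). Myf5, the determination factor already present in quiescent cells, had 219 to 363 CPM at T120 and 267 to 332 at T90, with overlapping groups (-0.06 ± 0.18; adjusted p = 0.854, edgeR). Myog, the factor of terminal differentiation, was at 0.427 to 5.64 CPM at T120 and 0.788 to 27.5 at T90 (adjusted p = 0.0913, edgeR), and 90B and 90C held the high values. It was called down without 90A (edgeR adjusted p = 0.0343) and with the block on the 7 libraries (0.0291).

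**Figure D2:**
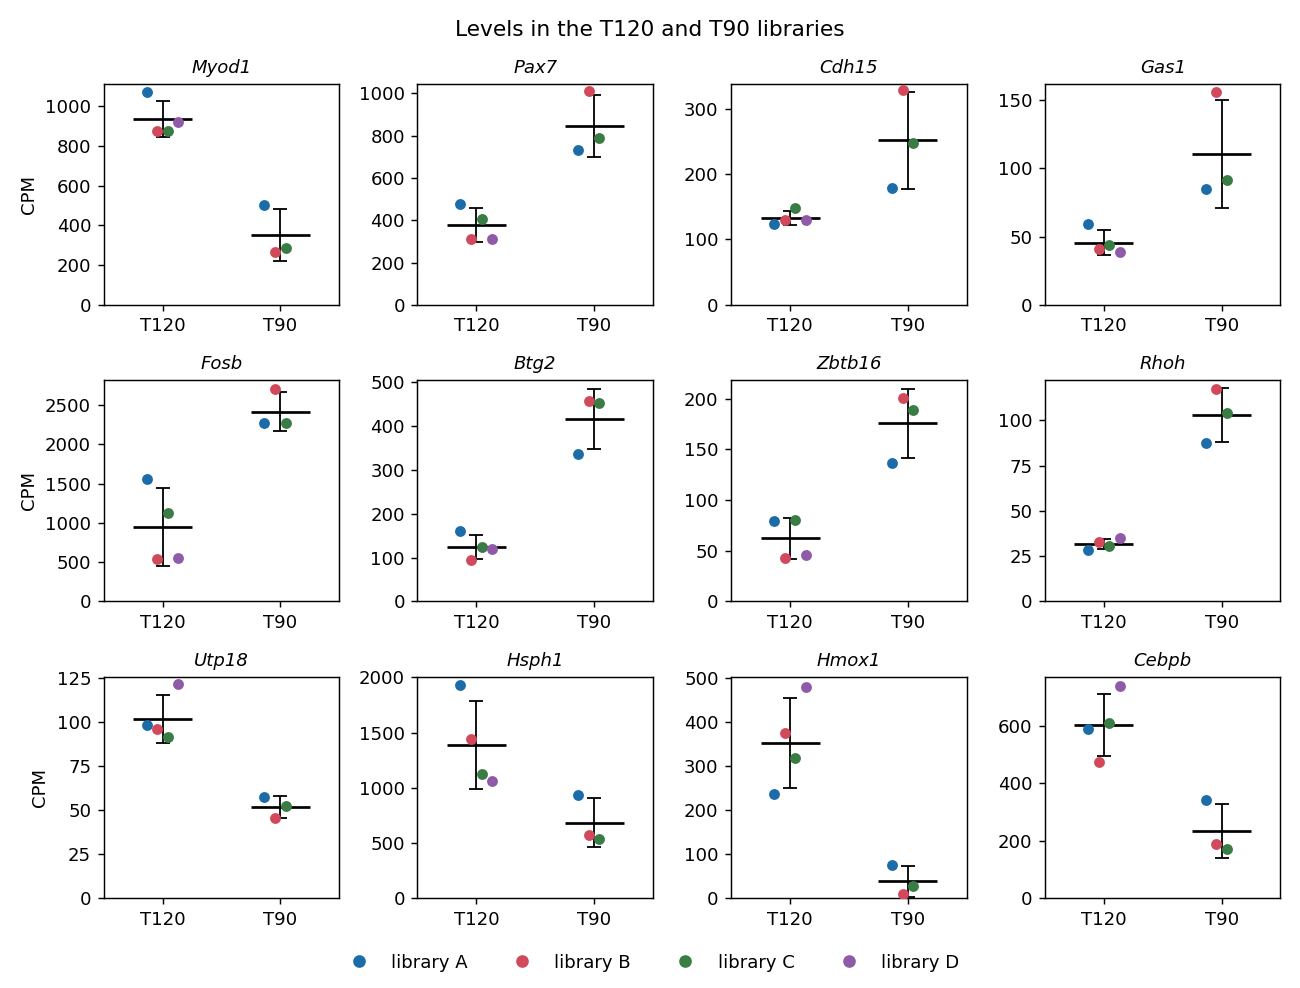
Points are single libraries (colour gives the library letter), long bars the group mean and error bars 1 SD, in CPM with TMM factors and axes from 0, for 12 genes at T120 (4 libraries) and T90 (3 libraries). In all 12 genes the T120 libraries lie wholly above or wholly below the T90 libraries, and in 11 of them, all but Fosb, 90A is the T90 library nearest to T120. Hmox1, Btg2, Fosb, Zbtb16 and Rhoh also belong to groups of named genes picked for no overlap.

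Of 45 measured quiescence genes 16 fell and 2 rose (35.6% and 4.44%, against 13.9% and 9.11% of all genes), with a median of -0.31. In 17 of the 45 all T120 libraries were below all T90 libraries (14.9% of all genes were). Gas1, a growth arrest gene, had 59.3, 40.9, 43.7 and 38.4 CPM at T120 and 84.6, 156 and 91.3 CPM at T90 (-1.28 ± 0.27; adjusted p = 0.00286, edgeR). Foxo3, a forkhead factor linked to stem cell quiescence, fell by 0.99 (SE 0.21; adjusted p = 0.00235, edgeR), with 69.9 to 103 CPM at T120 and 134 to 194 CPM at T90. Fgfr4, a fibroblast growth factor receptor of satellite cells, fell by 0.99 and Calcr, the calcitonin receptor that is known to keep them quiescent, by 0.77, both named after their values were seen. Spry1, a growth factor signalling inhibitor of quiescent satellite cells, had 78.8 to 163 CPM at T120 and 94.6 to 162 at T90 and was not called (-0.09 ± 0.23; adjusted p = 0.82, edgeR). Of the 2 risers Fgfr1 (0.61; edgeR adjusted p of 0.0587 without 90B), another receptor of the family, was named after its value was seen, and Rgs5 is also a pericyte marker and is described with the vessel genes. Leaving out single libraries gave 10 to 17 fallen members, and 9 of the 16 were kept in every such fit. With the block on the 7 libraries 9 falls were called.

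Of 20 Notch pathway genes 4 fell and 0 rose, with a median of -0.22. The share of falls, 20%, was near the 13.9% of all genes, and with the letter block on the 7 libraries 1 fall was called. In 8 of the 20 all T120 libraries lay below all T90 libraries, as did 14.9% of all genes. Heyl, a transcriptional effector of Notch, had 239, 321, 408 and 337 CPM at T120 against 492, 637 and 644 CPM at T90 (-0.86 ± 0.15; adjusted p = 0.000839, edgeR), and its groups did not overlap. The receptor Notch3 fell by 0.58 (SE 0.15; adjusted p = 0.00933, edgeR). Notch2 fell by 0.49 (SE 0.14), a call lost without 90B (edgeR adjusted p = 0.105) or 120D (0.0574). The ligand gene Dll1 was called at -0.69 ± 0.24 (adjusted p = 0.0455, edgeR), but the call was kept only without 120C among the single-library fits (the others gave 0.0625 to 0.191) and was lost with the library letter as a block (adjusted p = 0.0784 in all bulk libraries). Hes1, another Notch effector, had 8.09 to 18.7 CPM at T120 and 8.94 to 21.9 at T90 (adjusted p = 0.481, edgeR). The letter block on the 7 libraries ended the call of Dll1, Notch3 and Notch2 (edgeR adjusted p 0.0637 to 0.0919).

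Immediate early genes were mostly lower at T120 than at T90 and still far above intact tissue. The list was named for transcription factors but also holds other genes, among them Btg2, Zfp36l1 and Zfp36l2. Of 33 measured, 12 fell and 1 rose (36.4% and 3.03%, against 13.9% and 9.11% of all genes). A negative log2 fold change was found in 27, and the median was -0.53. Without 90B, 120B or 120D the number of falls was 5, 6 and 6, and 5 of the 12 were kept in all single-library fits. With the block on the 7 libraries 4 falls and 3 rises were called. The list's median level over T0 was 0, 1.24, 2.96, 4.21, 3.74 and 3.24 on the log2 scale at T0, T15, T30, T60, T90 and T120. Btg2 (chromosome 1, 134075170 to 134079120, - strand), which restrains proliferation and promotes mRNA decay, had 161, 94.5, 125 and 120 CPM at T120 and 336, 458 and 453 CPM at T90. It fell by 1.73 (SE 0.22; adjusted p = 6.8e-05, edgeR), the most of the list. Fosb, an AP-1 subunit, had 1560, 534, 1130 and 549 CPM at T120 and 2270, 2700 and 2270 CPM at T90 (-1.36 ± 0.33; adjusted p = 0.00634, edgeR). Both genes also belong to the 12 largest falls, a group picked for no overlap, and 120A and 120C held more Fosb than 120B and 120D. Under the block on the 7 libraries no call was made for Fosb (edgeR adjusted p 0.0546).

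Zfp36l1, which directs AU-rich mRNAs to decay, fell by 1.10 (SE 0.16; adjusted p = 0.000228, edgeR), and its relative Zfp36l2 was the 1 riser (0.95, named after its value was seen), a call lost without 90A, 120B or 120D (highest edgeR adjusted p 0.0826). Nr4a1, an orphan nuclear receptor, had 448, 268, 288 and 182 CPM at T120 and 560, 921 and 570 CPM at T90 (-1.21 ± 0.32), and its call was lost without 90B (adjusted p = 0.0849, edgeR). Fos itself stood at the threshold (-0.97 ± 0.35; adjusted p = 0.0495, edgeR): 120A had 471 CPM, within the 451 to 737 CPM of T90, and the other T120 libraries 180 to 295 CPM. That call was kept only without 120A (0.0518 to 0.25 in the other 6 fits). Not called were Jun (184 to 566 CPM at T120 and 384 to 500 at T90; adjusted p = 0.49, edgeR), Egr1 (1440 to 2060 and 2210 to 2350 CPM; adjusted p = 0.259), Atf3 (128 to 309 and 267 to 305 CPM; adjusted p = 0.239) and Fosl1. Fosl1, another AP-1 subunit, had 629 to 788 CPM at T120 and 313 to 522 CPM at T90, higher without overlap, with 0.81 ± 0.44 (adjusted p = 0.192, edgeR), and was called with the letter as a block on the 7 libraries (adjusted p = 0.018). Lost with the block on the 7 libraries were Nr4a1 and Fos (edgeR adjusted p 0.0549 to 0.149).

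The promoters of 3 named genes are shown because each holds a known regulatory motif: a cyclic AMP response element in Btg2, CArG boxes, the binding motif of serum response factor, in Srf, and an E-box, the motif bound by MYC and MAX, in Utp18. Sequences are from RefSeq (GRCm38.p6), 250 bases before to 50 after the gene start, read 5′ to 3′ on the gene's strand, with motif letters in capitals.
Btg2, chr1:134079106-134079405, - strand, TGACGTCA in capitals: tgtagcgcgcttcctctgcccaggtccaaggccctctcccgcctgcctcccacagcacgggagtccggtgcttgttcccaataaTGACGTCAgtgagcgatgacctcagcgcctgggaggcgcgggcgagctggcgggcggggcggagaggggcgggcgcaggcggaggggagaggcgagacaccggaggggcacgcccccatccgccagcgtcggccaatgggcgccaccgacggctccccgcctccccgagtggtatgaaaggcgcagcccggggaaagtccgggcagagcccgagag
Srf, chr17:46556113-46556412, - strand, CArG boxes in capitals: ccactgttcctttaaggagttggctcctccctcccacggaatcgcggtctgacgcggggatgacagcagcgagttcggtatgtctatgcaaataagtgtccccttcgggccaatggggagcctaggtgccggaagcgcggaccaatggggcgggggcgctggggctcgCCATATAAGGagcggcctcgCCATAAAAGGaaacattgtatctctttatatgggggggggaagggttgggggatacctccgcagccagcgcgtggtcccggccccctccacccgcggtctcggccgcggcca
Utp18, chr11:93885717-93886016, - strand, CACGTG in capitals: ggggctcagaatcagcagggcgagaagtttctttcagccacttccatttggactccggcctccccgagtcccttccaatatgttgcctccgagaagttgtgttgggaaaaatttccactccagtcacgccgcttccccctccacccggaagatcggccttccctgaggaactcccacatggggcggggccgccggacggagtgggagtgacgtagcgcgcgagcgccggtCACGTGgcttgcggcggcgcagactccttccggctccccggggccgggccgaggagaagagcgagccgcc

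Both strands of the windows were searched, and 6140 of the 8059 listed genes had one. TGACGTCA was in 3.79% of all 6140 promoters and in 1 of the 27 immediate early promoters found, that of Btg2. A CArG box was in 1.5% of all promoters and 2 of the 27. The AP-1 motif TGACTCA was in 3.14% of all promoters and 0 of the 27. CACGTG was in 11.4% of all promoters and in 12 of 43 of the ribosome biogenesis list (27.9%), but in 5 of the 25 promoters of its called members and 7 of the 18 of its members not called. These are matches of letters and not binding sites.

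Srf, which encodes the serum response factor that drives many immediate early genes, had 63.4, 65.4, 64.5 and 53.7 CPM at T120 and 96.5, 105 and 76.3 CPM at T90 (-0.58 ± 0.11; adjusted p = 0.00161, edgeR). Of 23 YAP and SRF response genes 3 fell and 2 rose (13% and 8.7%, near the 13.9% and 9.11% of all genes). Filip1l, a filamin-interacting protein gene, fell by 0.81 (SE 0.17; adjusted p = 0.00306, edgeR), while Ccn2, the YAP target connective tissue growth factor, had 232, 335, 198 and 482 CPM at T120 and 228, 121 and 129 at T90 (0.97 ± 0.26). Its call was lost without 90B (edgeR adjusted p = 0.0664) or 90C (0.0568), and 120C lay below 90A. Wwtr1 (0.49), which encodes the YAP partner TAZ, was named after its value was seen. Ankrd1 was called at -0.67 ± 0.23 (adjusted p = 0.043, edgeR), lost in every single-library fit (0.0526 to 0.145) and with the letter as a block (0.0664). In the blocked fit of the 7 libraries the threshold was missed by Ccn2, Filip1l and Srf (edgeR adjusted p 0.0533 to 0.11).

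Of 16 MAP kinase and receptor feedback genes 3 fell and 2 rose (18.8% and 12.5%), near the 13.9% and 9.11% of all genes, and the block on the 7 libraries left 1 fall and 0 rises. Trib1, a pseudokinase, had 762, 457, 731 and 494 CPM at T120 and 1070, 1040 and 1250 CPM at T90 (-0.87 ± 0.21; adjusted p = 0.00595, edgeR), with no overlap. Spry2, an inhibitor of receptor tyrosine kinase signalling, was called up at 0.69 ± 0.20 and its relative Spred1 at 0.46 ± 0.16. The Spry2 call was lost without 90B (0.0729) or 90C (0.0879), and that of Spred1 in 5 of 7 fits (0.0585 to 0.169) and with the block (edgeR adjusted p = 0.0566). Dusp8, a MAP kinase phosphatase, was called at -0.96 ± 0.33, lost in 4 of 7 fits (0.0972 to 0.175), and Spred2 at -0.43, named after its value was seen and lost in 5 of 7 fits (up to 0.165). Of 21 NF-kB factors, inhibitors and cytokine genes 5 fell and 0 rose (23.8% down, against 13.9% of all genes). Of these falls 0 were kept in all single-library fits and 1 with the block on the 7 libraries. Birc3, an inhibitor of apoptosis, fell by 1.15 (SE 0.27; 26.6 to 59.3 CPM at T120 and 73.3 to 119 at T90), with an adjusted p of 0.0517 without 90C. Nfkbie, Bcl3 and Nfkbiz, which encode inhibitors and co-regulators of NF-kB, were called at -0.87, -0.81 and -0.78, and the call of each was lost in 4 or 5 of 7 fits (0.0502 to 0.112), while all T120 libraries of each lay below those of T90. The fifth was Birc2 (-0.76), named after its value was seen and lost in 4 of 7 fits (up to 0.11). The letter block on the 7 libraries ended the call of Dusp8, Spry2, Spred1, Nfkbie, Bcl3 and Nfkbiz (edgeR adjusted p 0.0522 to 0.144).

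Cebpb, a transcription factor of the acute response that also figures in the integrated stress response list, was the 1 riser among 15 STAT3 signalling genes, of which 5 fell. The list had 6.67% up and 33.3% down, against 9.11% and 13.9% of all genes. Cebpb had 589, 476, 610 and 741 CPM at T120 and 341, 187 and 173 CPM at T90 (1.37 ± 0.35; adjusted p = 0.00846, edgeR). Its mean was 629 ± 103 CPM at T60, 234 ± 93.5 at T90 and 604 ± 109 at T120 (SD, n = 4, 3 and 4), with an adjusted p of 0.0394 (edgeR) for the difference between the neighbouring steps. That call was lost without 90B, 90C, 120B, 120C or 120D (0.0518 to 0.299) and with the block on all bulk libraries (0.0873). Socs3, an inhibitor of STAT3 signalling, had 174, 84.1, 131 and 67 CPM at T120 and 168, 297 and 222 CPM at T90 (-1.01 ± 0.28), so 120A overlapped with T90, and the call was lost without 90B (0.114) or 120D (0.0601). Il11ra1, the interleukin 11 receptor, fell by 0.76 (SE 0.16; adjusted p = 0.00313, edgeR). Socs2 was called at -0.90 ± 0.29 and lost in 4 of 7 fits (0.0859 to 0.176), and Il4ra (-0.57) and Lifr (-0.37), named after their values were seen, were lost in 4 and 5 of 7 fits (up to 0.0926 and 0.124), Lifr also with the block (0.0574). Under the block on the 7 libraries no call was made for Socs3 (edgeR adjusted p 0.136).

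Ribosome assembly genes rose. Of 49 measured ribosome biogenesis and nucleolar genes 29 rose and 0 fell (59.2%, against 9.11% of all genes), 47 had a positive log2 fold change, and the median was 0.45. In 32 of the 49 all T120 libraries lay above all T90 libraries (11.9% of all genes did). The number of rises was 12 to 33 in the single-library fits, 28 with the block in all bulk libraries and 9 with the block on the 7 libraries. Utp18 (chromosome 11, 93859243 to 93885766, - strand), a subunit of the complex that processes the small subunit's RNA, had 98.4, 96.4, 91.6 and 122 CPM at T120 and 57.8, 45.4 and 52.7 CPM at T90 (0.98 ± 0.14; adjusted p = 0.000183, edgeR). Utp15 of the same complex rose by 0.97 ± 0.14, with 63.3 to 94 CPM at T120 and 31.7 to 43.2 at T90. Polr1e, an RNA polymerase I subunit, rose by 0.94 ± 0.25 (adjusted p = 0.0124, edgeR; 0.0725 without 90B), and Rrp9, which binds the U3 RNA, by 0.86 ± 0.26 (0.0201; 0.0933 without 90B and 0.102 without 90C). The list's median over T0 was 0, -0.01, -0.05, 0.22, 0.66 and 1.15 at T0, T15, T30, T60, T90 and T120. The structural proteins of the ribosome showed no such change: of 80 cytosolic ribosomal protein genes 0 were called in either direction by edgeR, with a median of 0.02, and 4 had an unadjusted p under 0.05 (1 were called by DESeq2 and 2 by limma-voom).

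**Figure D3:**
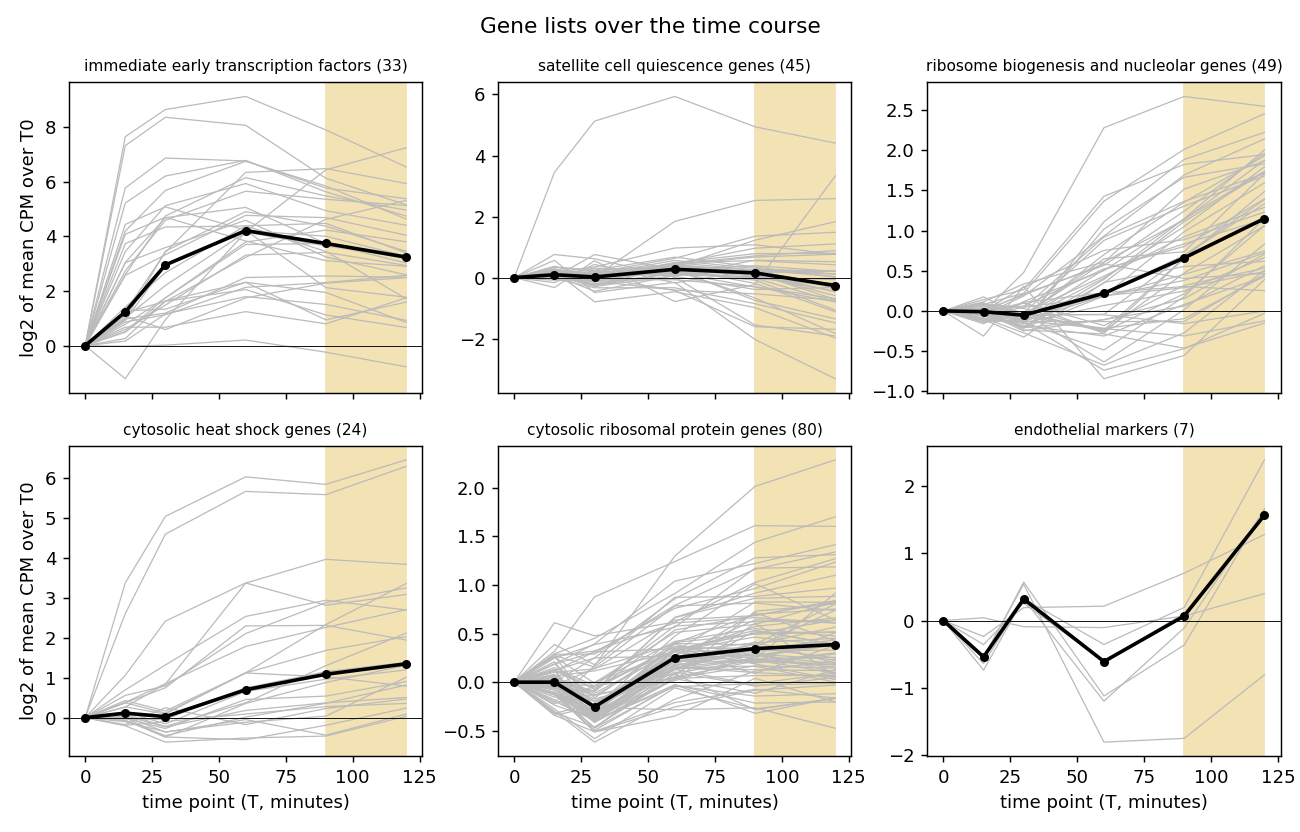
Grey lines are single genes and the black line the list median, as log2 of the mean CPM over that at T0 against the time point, with the T90 to T120 interval shaded and the number of genes in brackets. The immediate early median is 4.21 at T60, 3.74 at T90 and 3.24 at T120, the ribosome biogenesis median reaches 1.15 and the heat shock median 1.35, the ribosomal protein median is -0.25 at T30 and 0.39 at T120, and the 7 endothelial markers reach a median of 1.57.

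MYC-related factors and translation genes were tested as further lists. Myc, a transcription factor of growth, was already high and did not pass the test, with 1140 to 1330 CPM at T120 and 910 to 1370 at T90 (0.16 ± 0.20; adjusted p = 0.617, edgeR). Its partner Max rose by 0.74 (SE 0.17; adjusted p = 0.00474, edgeR), with 116 to 143 CPM at T120 and 64.4 to 91.5 at T90. Max was the only one of 10 MYC network factors called (10%, against 9.11% of all genes called up). Of 51 translation initiation factor genes 9 rose and 0 fell (17.6% up, against 9.11% of all genes), with a median of 0.16. With the block on the 7 libraries 0 rose. Eif4ebp1, a repressor of cap-dependent initiation, had 56.1, 88.7, 64.3 and 109 CPM at T120 and 46.2, 39.2 and 42.9 CPM at T90 (0.90 ± 0.19; adjusted p = 0.00259, edgeR). Eif1ad rose by 0.83 ± 0.18 and Eif2ak1, the heme-regulated kinase of the initiation factor eIF2, by 0.49 ± 0.11 (adjusted p = 0.00503, edgeR). Eif2b3, called at 0.73 ± 0.25, lost its call in 4 of 7 fits (0.102 to 0.135) and with the block (0.0909). Lost with the block on the 7 libraries were Eif4ebp1, Eif1ad, Eif2b3 and Eif2ak1 (edgeR adjusted p 0.0637 to 0.204).

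Of 22 cytosolic aminoacyl-tRNA synthetase genes, which charge tRNAs with amino acids, 10 rose and 2 fell (median 0.35). These were 45.5% and 9.09%, against 9.11% and 13.9% of all genes. The counts were 5 and 3 with the block on all bulk libraries and 1 and 1 with the block on the 7. The number of rises in the single-library fits was 3 to 12. Gars, which charges glycine, had 72.4, 94.6, 75.4 and 122 CPM at T120 and 55.5, 58.1 and 55.8 CPM at T90 (0.69 ± 0.15; adjusted p = 0.0037, edgeR), and Rars, for arginine, rose by 0.62 ± 0.15. Aimp2, a scaffold of the synthetase complex, rose by 1.03 ± 0.30, with adjusted p of 0.0838 without 90B and 0.0958 without 90C. The 2 that fell were Dars, for aspartate (-0.59 ± 0.15; adjusted p = 0.00865, edgeR, and 0.059 without 90B), and Mars, for methionine (-0.46), named after its value was seen and lost in 5 of 7 fits (up to 0.209). Of 38 proteasome subunit genes 8 rose and 0 fell (21.1% up, against 9.11% of all genes), with a median of 0.16. With the block on the 7 libraries 0 rose. Psmd11, a lid subunit, had 211, 213, 209 and 244 CPM at T120 and 179, 145 and 152 CPM at T90 (0.47 ± 0.09; adjusted p = 0.00128, edgeR). Psmc2 (0.63 ± 0.19), Psmc4 (0.51 ± 0.16) and the activator subunit Psme3 (0.48 ± 0.14) were called as well, each losing its call without 2 of the libraries (0.0674 to 0.129). In the blocked fit of the 7 libraries the threshold was missed by Gars, Rars, Psmc2, Psmc4, Psme3 and Psmd11 (edgeR adjusted p 0.0553 to 0.151).

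**Figure D4:**
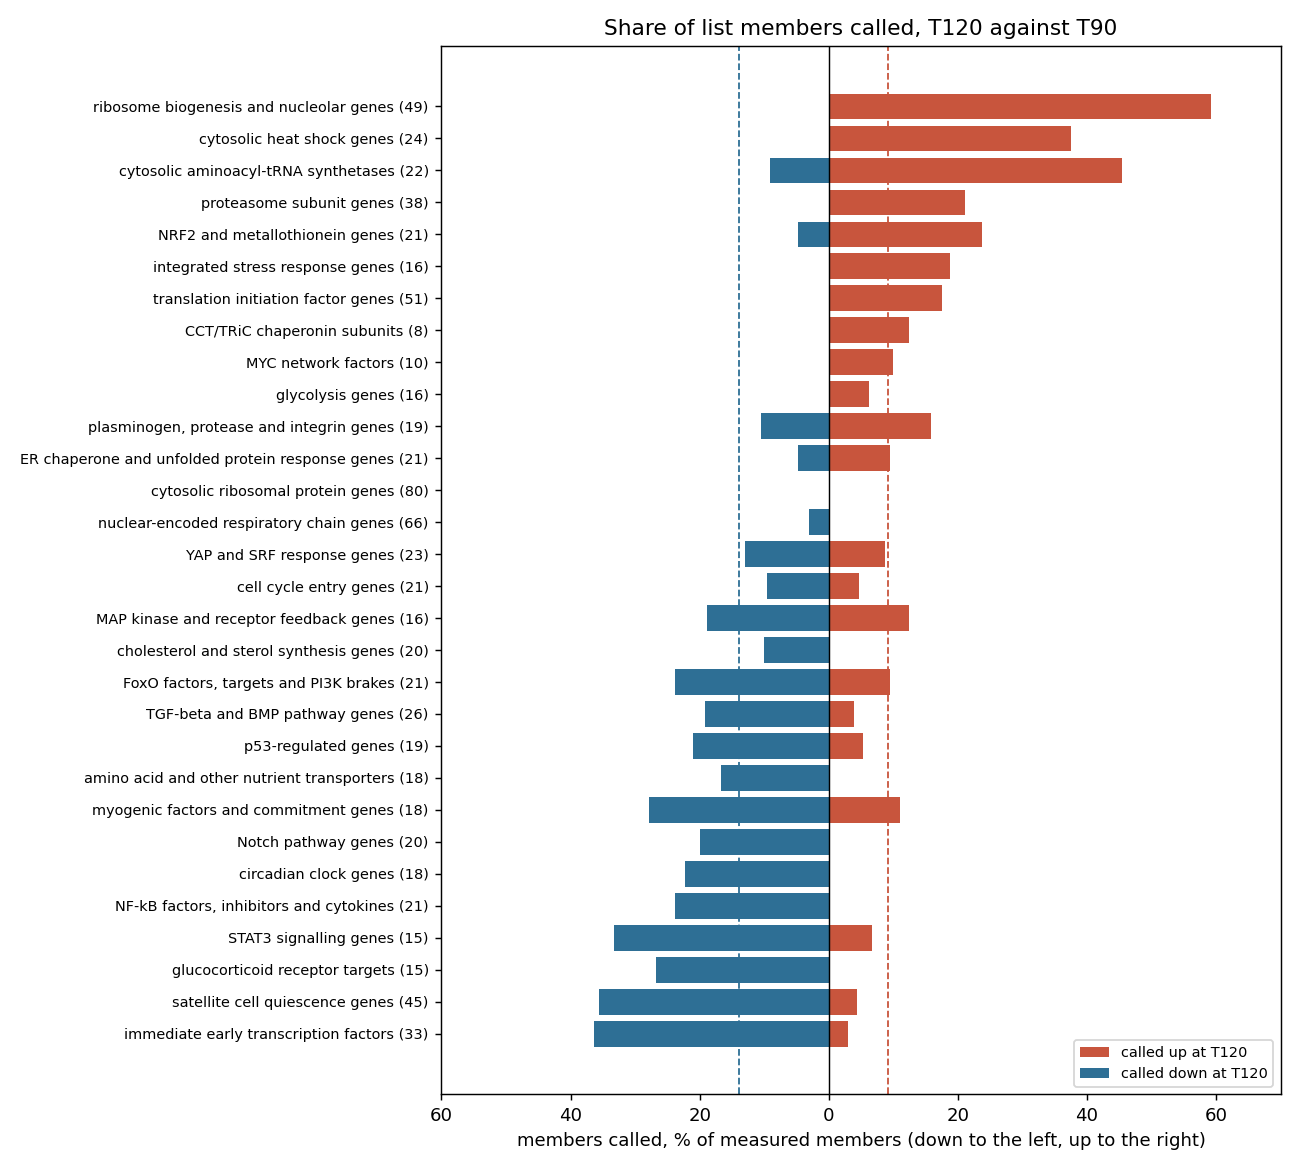
Bars give the percentage of measured members called up (right) and down (left) at T120 against T90 for the 30 gene lists, with the number measured in brackets, and dashed lines mark the shares of all genes, 9.11% up and 13.9% down. Ribosome biogenesis has the longest bar to the right (59.2%). Immediate early genes, labelled as transcription factors, have the longest to the left (36.4%).

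Chaperone genes rose in part. Of 24 genes of the cytosolic heat shock list, which also holds mitochondrial chaperonin genes, 9 rose and 0 fell, with a median of 0.36. The share of rises was 37.5%, against 9.11% of all genes. But the number was 2 to 8 in the single-library fits, 6 with the block on all bulk libraries and 4 with the block on the 7. Hsph1, a large heat shock protein of the HSP110 family, had 1930, 1440, 1120 and 1060 CPM at T120 and 938, 574 and 537 CPM at T90 (1.02 ± 0.22; adjusted p = 0.00337, edgeR) and was the one kept in all of those fits. Hspe1, the mitochondrial co-chaperonin, rose by 0.97 ± 0.26 (0.0654 without 90C), Fkbp4, a co-chaperone of HSP90, by 0.53 ± 0.14 (0.0706 without 90C), and Cryab, the small heat shock protein alpha-B crystallin, by 0.82 ± 0.24 (0.0779 without 90B and 0.0949 without 90C). Of 8 subunits of the CCT/TRiC chaperonin, which folds actin and tubulin, 1 rose (12.5%, against 9.11% of all genes), and the median was 0.2. The riser was Cct8 (0.40 ± 0.12; 0.0832 without 90B and 0.0725 without 120D). Of 16 integrated stress response genes 3 rose and 0 fell (18.8% up, against 9.11% of all genes). The risers were Cebpb, Eif4ebp1 and Atf5 (0.50 ± 0.18), the last lost in 4 of 7 fits (0.0556 to 0.183) and with the block (0.0825). Of 21 endoplasmic reticulum chaperone and unfolded protein response genes 2 rose and 1 fell (9.52% and 4.76%, against 9.11% and 13.9% of all genes). Herpud1, of the degradation pathway of that organelle, had 64.6, 55.8, 76.4 and 59.4 CPM at T120 and 90.4, 119 and 118 CPM at T90 (-0.77 ± 0.17; adjusted p = 0.0033, edgeR). Ern1, which encodes the sensor IRE1, rose by 0.61 ± 0.16 (0.0744 without 90B), and Edem1 was called at 0.32 ± 0.11, lost in 4 of 7 fits (0.0513 to 0.148). The letter block on the 7 libraries ended the call of Cct8, Atf5 and Edem1 (edgeR adjusted p 0.0926 to 0.156).

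Oxidative stress genes of the NRF2 pathway had 5 rises and 1 fall of 21, with a median of 0.21. These were 23.8% and 4.76%, against 9.11% and 13.9% of all genes. Hmox1 (chromosome 8, 75093621 to 75100589, + strand), the heme-degrading enzyme heme oxygenase 1, had 237, 376, 318 and 479 CPM at T120 and 76.3, 9.25 and 28.2 CPM at T90. The log2 fold change was 3.24 ± 0.46 (adjusted p = 0.000177, edgeR), and even 120A, the lowest at T120, was above 90A, the highest at T90. Hmox1 had been at 4.90 CPM at T0 and 4.07 ± 1.19 at T60, and the step before was 3.20 ± 0.47. Gclc, the catalytic subunit of glutathione synthesis, rose by 0.83 ± 0.16 (adjusted p = 0.00183, edgeR), and Gclm, its modifier subunit (0.64), and the ferritin light chain Ftl1 (0.67), both named after their values were seen, were called too, but each call was lost in 4 of 7 fits (up to 0.256 for Gclm and 0.136 for Ftl1), and that of Gclm also with the block (0.0618). Pgd, of the pentose phosphate pathway, rose by 0.93 ± 0.26 (0.0816 without 90C). Osgin1, an NRF2 target, fell by 0.97 (SE 0.23), with 53.8, 58.2, 73.2 and 55 CPM at T120 and 115, 120 and 120 CPM at T90. Under the block on the 7 libraries no call was made for Gclc (edgeR adjusted p 0.0868).

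Of 19 p53-regulated genes 4 fell and 1 rose (21.1% and 5.26%, against 13.9% and 9.11% of all genes). Aen, an apoptosis-linked nuclease, had 170 to 210 CPM at T120 and 90.2 to 137 at T90 (0.80 ± 0.13; adjusted p = 0.000629, edgeR). Btg2 fell, as did Gadd45a, a growth arrest gene, by 0.70 (SE 0.14; 69.9 to 81.2 CPM at T120 and 97.2 to 147 at T90). The others were Ccng1 (-0.52, named after its value was seen) and Ccng2 (-0.55 ± 0.20), whose call was lost in 5 of 7 fits (0.0815 to 0.182) and with the block (0.0664). Of 21 cell cycle entry genes 2 fell and 1 rose (9.52% and 4.76%, against 13.9% and 9.11% of all genes). Ccnd3, a D-type cyclin, had 30.3 to 47.7 CPM at T120 and 44.2 to 103 at T90 (-1.01 ± 0.20; adjusted p = 0.00212, edgeR), so 90A overlapped with T120. Rbl2, a pocket protein of quiescent cells, fell by 0.68 (0.0504 without 90C), and E2f4, its partner among the E2F factors, rose by 0.73 ± 0.16 (adjusted p = 0.004, edgeR). Lost with the block on the 7 libraries were Ccng2, Ccnd3 and Rbl2 (edgeR adjusted p 0.0784 to 0.105).

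Glucocorticoid, clock and FoxO genes mostly fell where they were called. The falls were 26.7%, 22.2% and 23.8% of the measured members, against 13.9% of all genes. The lists share genes, and Per1 counts in the glucocorticoid and the clock list. Of 15 glucocorticoid receptor targets 4 fell and 0 rose. Zbtb16, a zinc finger repressor, had 79.3, 42.9, 80.5 and 45.9 CPM at T120 and 137, 201 and 189 CPM at T90 (-1.50 ± 0.23; adjusted p = 0.000296, edgeR). Per1, also a clock gene, fell by 0.94 (SE 0.21) and Foxo1 by 0.61 (SE 0.14). Pdk4 was called at -0.55 ± 0.20 (adjusted p = 0.0483, edgeR), lost in every single-library fit (0.0594 to 0.209) and with the block (0.0526). Of 18 circadian clock genes 4 fell, Per1, Per3, Nfil3 and the repressor gene Bhlhe40 (-1.12 ± 0.22; adjusted p = 0.00184, edgeR; 49.3 to 87.5 CPM at T120 and 108 to 178 at T90). Per3 (-0.86 ± 0.26) and Nfil3 (-0.65 ± 0.21) lost their calls in 4 of 7 fits each (0.0592 to 0.116). Of 21 genes of the FoxO and PI3K group 5 fell and 2 rose, with a median of -0.35. Pik3r1, the regulatory subunit of PI3 kinase, had 169, 106, 135 and 110 CPM at T120 and 188, 273 and 258 CPM at T90 (-0.88 ± 0.17; adjusted p = 0.00145, edgeR). Cited2, a transcriptional co-regulator, had 104 to 131 CPM at T120 and 43.9 to 66.6 at T90 (1.18 ± 0.23; adjusted p = 0.0015, edgeR). Foxo4 (-0.49; lost in 3 of 7 fits, up to 0.211) and Tsc1 (0.36; lost without 90B or 90C, up to 0.0697) were named after their values were seen, and the insulin receptor substrate gene Irs1 (-0.61 ± 0.20) lost its call in 5 of 7 fits (0.0512 to 0.18) and with the block (0.0524). In the blocked fit of the 7 libraries the threshold was missed by Foxo1, Per3, Nfil3, Pik3r1 and Irs1 (edgeR adjusted p 0.068 to 0.134).

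Metabolic lists had few calls. Falls were 3.03% of the respiratory chain genes, 10% of the sterol genes and 16.7% of the nutrient transporters, against 13.9% of all genes. Rises were 6.25% of the glycolysis genes, against 9.11% of all genes. Of 66 nuclear-encoded respiratory chain genes 2 were called, both down, the complex I genes Ndufv3 (-0.64 ± 0.18; lost in 3 of 7 fits, 0.055 to 0.209) and Ndufs7 (-0.55 ± 0.19; lost in 5, 0.0622 to 0.227, and with the block, 0.0599). Of 16 glycolysis genes 1 was called up, the regulator Pfkfb3 (0.74 ± 0.24), with 25.3 CPM in 120D against 44.2 to 51.6 in the other T120 libraries and 22.4 to 27.6 at T90. Without 90B, 90C, 120A, 120B or 120C its adjusted p was 0.0604 to 0.124. Of 20 cholesterol and sterol synthesis genes 2 were called down while 19 had a negative value (median -0.24; 4429 of 8059 genes were negative). In 8 of the 20 all T120 libraries lay below all T90 libraries, as did 14.9% of all genes. Scd2, a fatty acid desaturase, had 58.1 to 81.1 CPM at T120 and 104 to 189 at T90 (-1.05 ± 0.21; adjusted p = 0.00201, edgeR), and Insig1, a brake on sterol synthesis, fell by 0.64 (0.0593 without 120B, 0.0801 without 90B and 0.0802 without 90C). Of 18 nutrient transporters 3 fell, the amino acid transporter Slc38a6 (-1.12 ± 0.17; 5.27 to 8.01 CPM at T120 and 13.5 to 15.2 at T90), the glucose transporter Slc2a12 (-0.93 ± 0.16) and the arginine transporter Slc7a2 (-0.58 ± 0.17; 0.0741 to 0.107 without 90B, 90C or 120D). The letter block on the 7 libraries ended the call of Ndufv3, Ndufs7, Scd2, Insig1, Slc38a6 and Slc7a2 (edgeR adjusted p 0.0504 to 0.18).

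Among plasminogen, protease and integrin genes 3 of 19 rose and 2 fell (15.8% and 10.5%, against 9.11% and 13.9% of all genes). Cd44, the hyaluronan receptor, had 629, 592, 729 and 652 CPM at T120 and 352, 292 and 449 CPM at T90 (0.84 ± 0.18; adjusted p = 0.00344, edgeR). Plau, the protease urokinase, fell by 0.55 (SE 0.13; adjusted p = 0.00706, edgeR), and Adamts5, a proteoglycan-cleaving protease, by 0.88 (0.0793 without 90B). Itgav (0.45) was named after its value was seen, and Itga6, a laminin-binding integrin chain that endothelial cells also carry, was called at 1.33 ± 0.42 (0.0574 to 0.12 without 90B, 90C or 120C). Of 26 TGF-beta and BMP genes 5 fell and 1 rose (19.2% and 3.85%, against 13.9% and 9.11% of all genes). Skil, a repressor of SMAD signalling, had 676, 357, 698 and 414 CPM at T120 and 984, 1070 and 1160 CPM at T90 (-1.0 ± 0.18; adjusted p = 0.00114, edgeR). Smad3, a signal transducer of the pathway, rose by 0.68 ± 0.13 (171 to 238 CPM at T120 and 116 to 129 at T90). Id3 fell, and the co-receptor Tgfbr3 fell by 0.70 (0.0565 without 90C and 0.0501 without 120D). Tgfb3 (-0.43) and Ski (-0.32) were named after their values were seen, and the call of Ski was lost in 5 of 7 fits (up to 0.169) and with the block (0.0761). Under the block on the 7 libraries no call was made for Adamts5 and Tgfbr3 (edgeR adjusted p 0.0571 to 0.0755).

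Of the 12 protein-coding genes with the largest rises and no overlap between groups, Rgs5 (chromosome 1, 169655501 to 169695813, + strand), a pericyte gene, was first, with 160, 80.6, 182 and 75.2 CPM at T120 and 14.5, 8 and 9.19 CPM at T90 (3.57 ± 0.40; adjusted p = 2.38e-05, edgeR). Myh11, the smooth muscle myosin heavy chain, had 109, 80.3, 122 and 71.9 CPM at T120 and 9.29, 20 and 4.92 CPM at T90 (3.07 ± 0.62; adjusted p = 0.00219, edgeR). Cdh5, the endothelial cadherin, had 136, 82.5, 147 and 40.5 CPM at T120 and 25.4, 20.5 and 20 CPM at T90 (2.21 ± 0.55; adjusted p = 0.00734, edgeR). In all 3 genes 120A and 120C were the highest and 120D the lowest. Also among the 12 were the laminin chain Lama4 (2.19 ± 0.54), the water channel Aqp1 (2.10 ± 0.43), the VEGF receptor Kdr (2.05 ± 0.60), the fatty acid receptor Cd36 (1.94 ± 0.40), Adgrf5 (1.93 ± 0.45), the endothelial receptor Cd93 (1.92 ± 0.60), Slfn5 (2.02 ± 0.53), the muscle gene Xirp2 (2.06 ± 0.61) and Hmox1. Kdr, Xirp2, Slfn5 and Cd93 were not called without 90B (0.0603 to 0.105), Kdr, Xirp2 and Cd93 also not without 90C (0.0754 to 0.0882), and Cd93 not without 120C (0.0613). In 11 of the 12, all but Hmox1, 120D was the lowest T120 library, against 99 of the 734 called rises (13.5%), a count made after the values were seen. Lost with the block on the 7 libraries was Xirp2 (edgeR adjusted p 0.052).

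Among markers of cells other than satellite cells, the endothelial sums separated the groups. The sums of the smooth muscle, myofibre and fibro-adipogenic markers overlapped between T120 and T90. Rises were 71.4% of the listed endothelial, 33.3% of the smooth muscle, 42.9% of the myofibre and 20% of the fibro-adipogenic markers. Over all genes 9.11% rose and 13.9% fell. Of 9 endothelial markers 7 were listed, 5 rose and 0 fell (median 1.47), and the summed level was 636, 487, 695 and 371 CPM in 120A to 120D and 293, 219 and 233 CPM in 90A to 90C. Pecam1 rose by 1.47, Flt1 by 1.76 and Eng by 0.57 beside Cdh5 and Kdr, while Tek had 0.34 and Vwf 0.96 and were not called. Of the 5 rises only that of Cdh5 was kept in all single-library fits: Pecam1, Flt1 and Kdr were lost without 90B or 90C, Pecam1 also without 120C, and Eng in 6 of 7 fits (highest edgeR adjusted p 0.0922, 0.0852, 0.0917 and 0.162) and with the block (0.0635). Of 8 smooth muscle and pericyte markers 6 were listed and 2 rose, Rgs5 and Myh11, with a summed level of 486 to 690 CPM at T120 and 299 to 515 at T90. Of 12 myofibre markers 7 were listed and 3 rose, Myh4 (1.68), Acta1 (1.46) and Tnnt3 (1.14), with sums of 202 to 463 CPM at T120 and 267 to 292 at T90. The calls of Acta1 and Tnnt3 were lost in 4 and 3 of 7 fits (up to 0.158 and 0.126). Of 9 fibro-adipogenic markers 5 were listed and 1 rose, Col1a1 (1.09; 0.0658 without 90C), with sums of 1870 to 2230 CPM at T120 and 2150 to 2780 at T90. The glial marker Mbp rose by 1.51, a call lost without 90C or 120C (up to 0.1). In bulk RNA a change in the share of a cell type and a change in RNA per cell cannot be told apart, and the part of other cells in the results above was not tested. The summed endothelial level of 371 to 695 CPM at T120 stood beside 6520 to 7990 CPM for the satellite cell markers.

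**Figure D5:**
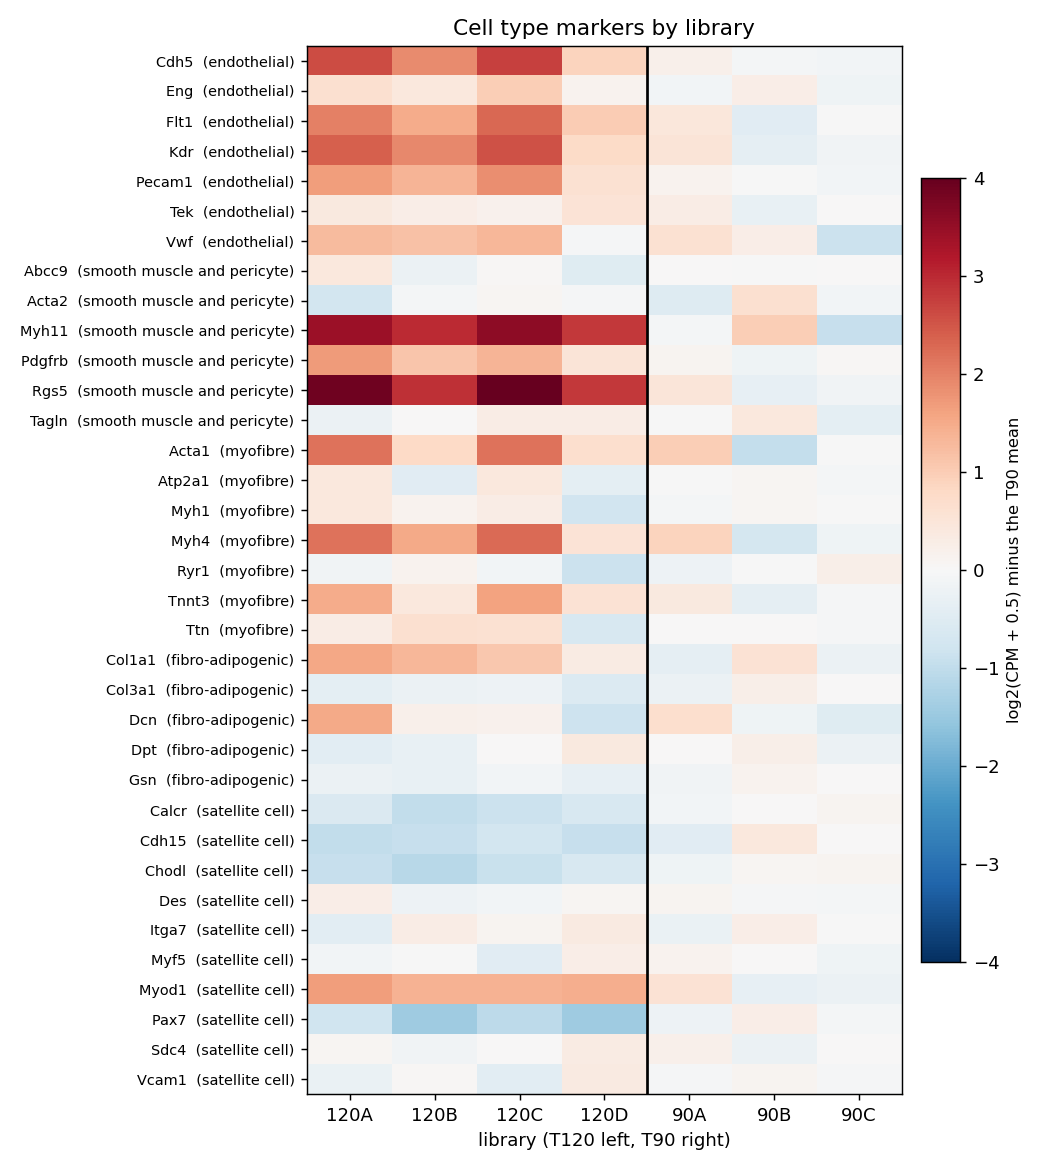
Each cell gives log2(CPM + 0.5) of a listed marker in 1 library minus its T90 mean, from blue (lower) to red (higher), with the 4 T120 libraries left of the line and the 3 T90 libraries right of it. Among the T120 libraries, Cdh5, Kdr, Pecam1, Flt1, Myh11, Rgs5, Acta1 and Myh4 are reddest in 120A and 120C and palest in 120D. Other markers differ: Tek is highest in 120D and Ttn in 120B, and Acta2 and Tagln are lowest in 120A. The satellite cell markers Pax7, Cdh15, Calcr and Chodl are blue in all T120 libraries, and Myod1 is red.

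The 12 protein-coding genes with the largest falls and no overlap came from several classes. Gli2 (chromosome 1, 118834132 to 119053619, - strand), a transcription factor of Hedgehog signalling, had 64.1, 42.8, 58.5 and 41.3 CPM at T120 and 119, 154 and 128 CPM at T90 (-1.37 ± 0.13; adjusted p = 4.82e-06, edgeR). Rhoh (chromosome 5, 65861213 to 65896700, + strand) had 28.6, 32.7, 30.8 and 34.9 CPM at T120 and 87.7, 117 and 104 CPM at T90 (-1.69 ± 0.18; adjusted p = 1.34e-05, edgeR). The T120 values of Rhoh lay within a narrow range far below T90. Bmyc, a MYC relative, had 1.12 to 2.06 CPM at T120 and 3.85 to 7.73 at T90 (-1.73 ± 0.29), the lowest level of the 12. Lmod2, a leiomodin of muscle actin filaments, had 50, 21.7, 22.9 and 18.9 CPM at T120 and 105, 108 and 61.8 CPM at T90 (-1.70 ± 0.30). The transporter Slc10a6 (-1.48 ± 0.26), the Golgi protein Gcc1 (-1.43 ± 0.23), Ccdc162 (-1.36 ± 0.19), the transcription factor Osr2 (-1.36 ± 0.23) and Ccdc8 (-1.36 ± 0.18) followed, beside Btg2, Zbtb16 and Fosb. All 12 falls were kept in every single-library fit, with the largest adjusted p per gene between 0.000142 and 0.0336. In the blocked fit of the 7 libraries the threshold was missed by Bmyc and Osr2 (edgeR adjusted p 0.0524 to 0.0572).

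Whether the step differed in size from the T60 to T90 step was tested next. A gene not called in this test was not shown to have gone on as before. By edgeR 68 genes differed (0.844% of the listed genes, 34 in each direction), and 1273 had an unadjusted p under 0.05. The T90 libraries enter both steps with opposite sign, so a chance value at T90 appears as a turn. Without 90C 0 genes were called (707 at an unadjusted p under 0.05), against 192 by DESeq2 and 187 by limma-voom on all libraries. Galnt2, a glycosyltransferase that starts O-linked glycans, had 21.3 ± 2.99 CPM at T60, 4.42 ± 0.806 at T90 and 14.2 ± 2.49 at T120 (SD, n = 4, 3 and 4), a step of 1.67 ± 0.31 after one of -2.26 ± 0.31 (adjusted p of the difference = 0.00439, edgeR; 0.0654 without 90C). Cebpa, a relative of Cebpb, went the same way, with 35.8 ± 4.73, 13.9 ± 2.58 and 32.5 ± 4.91 CPM at T60, T90 and T120, and Chtf8 had 41.0 ± 1.41, 23.1 ± 5.97 and 44.3 ± 4.34. Usp32, a deubiquitinase, was higher at T90 than at T60 and then flat, with 82.3 ± 11.5, 194 ± 29.1 and 194 ± 8.19 CPM. Yod1 (21.2, 43.8 and 29.8 CPM) and Zfp516 (214, 343 and 214 CPM) were highest at T90. All 6 differences were lost without 90C (0.0654 to 0.14).

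The T0 to T60 interval shares no library with this step, and their calls are set side by side. Both came from the same fit with a shared estimate of the spread, so the calls are not independent. The libraries of T0 and T60 differed in more than time. On the 3 long genes T0 had 1.61 to 5.06 CPM per kb and T60 0.0435 to 0.0714. Totals were 2974294 to 9745758 counts at T0 and 13006535 to 17938116 at T60. How this bears on the T60 calls and on the levels given over T0 was not tested. Of the 734 rises 209 (28.5%) had risen between T0 and T60, 229 (31.2%) had fallen and 296 (40.3%) had not been called, where 27.9% of all genes had risen and 28.3% had fallen (56.2% together). These shares are near those of all genes. Of the 1117 falls 208 (18.6%) had risen between T0 and T60, 376 (33.7%) had fallen and 533 (47.7%) had not been called. They make up 9.24% of the T60 rises and 16.5% of the T60 falls, and 32 of the 33 immediate early genes had risen by T60.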

How the data were processed

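The study's bulk RNA-seq part has 22 libraries at 6 time points, and the count table lists 8059 genes, 8049 of which matched GENCODE vM21 (GRCm38). Per the labels' protocols, RNA was extracted with a kit for fixed tissue and made into stranded total RNA libraries, read as 65-base single reads. The authors deposited raw counts per gene and library beside their own normalized values and comparisons, which were not used here (22 normalized columns). The submitters' processing notes name cutadapt 1.11, featureCounts 1.4.5-p3, DESeq2 1.18.1 and mm10, with no roles. The sources used here give no aligner, annotation or strand setting, so reads of overlapping or antisense genes cannot be told apart. The lowest of the authors' mean counts is 98.36, so weakly expressed genes are not listed. The 9 single-cell and single-nucleus samples were not analysed here.

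Counts were fitted with edgeR 4.0.16 (R 4.3.3; quasi-likelihood F test, TMM factors, Benjamini-Hochberg over all 8059 genes, called at an adjusted p under 0.05) on all 22 bulk libraries with time as a factor. The SE of a log2 fold change is its size divided by the square root of F. The script was tested on simulated data. Of 100 true changes of 0.5 on the log2 scale 22 were recovered, and of 100 changes of 1, 79. In the same simulation 3 unchanged genes were called. A gene not called may therefore still have changed. A second test compared the T90 to T120 step with the T60 to T90 step. Alternatives were DESeq2 1.42.0, its size factors, limma-voom (limma 3.58.1), other filters and libraries, a replicate block and leaving out each library. Deviations from the group means correlated between libraries of the same letter, with r of 0.1814, 0.1701 and 0.3052 for A, B and C, all above 0.1, while pairs of different letters had -0.3239 to 0.1215. The pair 90B and 120C, of different letters, also passed 0.1, at 0.1215. The letter was used as a replicate block only in alternative fits, a decision from these data and not from the labels. The main fit, which gave the headline counts, SEs and p-values, had no block. At other times the mean r of same-letter libraries ran from -0.189 (T120 with T0) to 0.37 (T120 with T60).

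The members and the 30 gene lists were chosen with earlier results of these data known. Named genes were the 12 protein-coding genes with the largest rise and the 12 with the largest fall among called genes without overlap, up to 4 called members per list, a fixed set of 14 genes, and the 3 genes per direction with the smallest p in the second test. Others are marked in the text as named after their values were seen. A called member of the myogenic list is not reported here by name.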

Additional observations from a re-analysis of the deposited data

Results flagged for a closer look

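In 9 of the 127 named genes 1 of the 4 T120 libraries stood far from the other 3 by Dixon's criterion, which chance meets in about 1 in 20 groups. The T90 group, with 3 libraries, was not tested.

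Library 120D was the one apart in 5 genes. It had 14.4 CPM for Lama4 (31.5 to 35.2 in the other T120 libraries), 19.9 for Dll1 (32.2 to 34.0), 53.7 for Srf (63.4 to 65.4), 35.9 for Slc7a2 (42.5 to 43.4) and 244 for Psmd11 (209 to 213). Library 120B had 303 CPM for Spred1 (393 to 411) and 473 for Notch2 (525 to 528). Library 120C had 180 CPM for Cryab (249 to 261) and 116 for Max (139 to 143).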

How the results depend on the processing

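The number of genes called was 1851 in the fit of all 22 libraries, 734 up and 1117 down. On the 7 libraries of T120 and T90 alone it was 793 (409 up and 384 down), and with the replicate block on these 7 it was 375 (204 up and 171 down). Both fits have fewer libraries behind the spread, and the rises made up 51.6% and 54.4% of their calls, against 39.7% in the full fit, so that rises outnumbered falls in both. Leaving out single libraries gave 907 to 2093 calls, 343 to 968 up and 564 to 1125 down. Of all list members 170 were called, 112 on the 7 libraries, 69 with the block on them and 79 to 194 in the single-library fits. Of the 127 named genes 117 were called and 67 kept the call with the block on the 7 libraries, against 75 to 108 in the single-library fits. With the block on all bulk libraries 9 named genes lost their call, each given in the report, and no other named call changed. On the 7 libraries 25 named calls were lost without the block and 50 with it.

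The difference between neighbouring steps was called in 68 genes, 192 by DESeq2, 187 by limma-voom, 18 with T60, T90 and T120 only, 8 without 90A and 120B (a setting chosen after seeing the data) and 0 to 94 in the single-library fits. The cause was not tested. Of the named genes 3, none called in the step, changed sign: the log2 fold change of Myf5 was -0.16 to 0.06 in the single-library fits and 0.04 without 90A and 120B, that of Spry1 was -0.3 to 0.18, and that of Usp32 was -0.09 to 0.15 and -0.01 with the replicate block on all bulk libraries.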

Other observations

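Some families were looked at after their values were seen, so their counts are descriptions. Of 40 mitochondrial ribosomal protein genes 8 rose and 0 fell (median 0.13), and of 10 mitochondrial import genes 4 rose and 0 fell (median 0.32). Of 29 DEAD box helicase genes, which remodel RNA, 8 rose and 0 fell (median 0.23). Of 40 genes of the centrosome, intraflagellar transport and the Bardet-Biedl complex, which build the cilium, 11 fell and 1 rose, with a median of -0.41 and 35 negative values. The shares over all genes were 9.11% up and 13.9% down.

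Some non-coding and repeat-like genes varied widely. Gm10800 had 2030, 4790, 17.2 and 62.8 CPM in 120A to 120D and 706, 4.9 and 1.79 CPM in 90A to 90C, and was not called (edgeR adjusted p = 0.216). Mir6236 had 2970, 2980, 2490 and 5620 CPM at T120 and 1070, 403 and 702 CPM at T90 (log2 fold change 2.28 ± 0.47, edgeR adjusted p = 0.00242). Of 108 genes of the annotation class TEC, still to be experimentally checked, 23 fell and 1 rose. These were 21.3% and 0.926%, against 13.9% and 9.11% of all genes. Of 80 snoRNA genes 0 were called in either direction by edgeR.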
